A study of Mus musculus with 15 samples.

Results

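The 5 genes described here encode zinc-binding and zinc-moving proteins of the mouse: the metallothioneins Mt1, Mt2 and Mt3 and the zinc transporters Slc30a1 and Slc39a2. They were chosen by symbol, as every probe set of the array whose annotation names exactly 1 of them. This gave 7 of 34945 probe sets with 1 gene, and 5 of 18193 genes: Mt1 and Slc30a1 have 2 probe sets each, and Mt2, Mt3 and Slc39a2 have 1 each. The choice rests on values of these arrays, since Mt2 was picked for falling only in Ptend/d lung and Slc39a2 for low values in tumours. The choice of Mt2 thus also rests on its values in Ptend/dSmad4d/d lung and in tumours. Values of the members in Ptend/d lung and in tumours, and of Mt2 in every comparison, are therefore given as a description, with no test.

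RNA was measured on 15 Affymetrix arrays, 3 for each of 5 groups of mice of mixed background. At 7 months the groups were lungs of wild type mice, of Ptend/d mice and of Ptend/dSmad4d/d mice, sampled per the series design ahead of tumour formation. At 12 months they were wild type lung and tumours of Ptend/dSmad4d/d mice. Lung arrays hold tissue of the organ and each tumour array a piece of a single tumour. The mice had normal feed and no treatment. All mutant groups share the Ptend/d genotype, and Smad4d/d is added in the other two. The Cre line or promoter and the cells it reaches, and how many animals an array holds, are not given in the sources used here. P-values thus measure only the spread between these arrays, which may be technical. Intensities are on a linear scale, and differences are on the log2(intensity + 16) scale, each relative to wild type of the same month.

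Array medians lay between 90.9 and 99.5, and arrays of a group correlated at 0.982 to 0.996 over genes. The 3 Smad4 probe sets were not lower in the groups labelled Smad4d/d than in wild type of their month: 1422485_at read 2371 to 2641 in Ptend/dSmad4d/d lung and 1941 to 2404 in wild type lung at 7 months. Whether these probes lie in the deleted part, and the share of cells with the deletion, are not given in the sources used here, so these values do not check the genotype. At 12 months, 2 wild type arrays carried Xist and 1 carried Y-linked RNA, while all 3 tumours carried Y-linked RNA alone. At 7 months, 8 of the 9 arrays carried both Xist and Y-linked RNA, and wild type array 3 carried Y-linked RNA alone. Those 8 arrays thus hold RNA of both sexes, so of more than 1 animal, while each array of 12 months carried RNA of 1 sex. The spread between arrays may therefore be of unlike kinds at 7 and at 12 months. The 18S ribosomal RNA control gave 1121 to 2036 on the tumour arrays against 5492 to 6933 on wild type arrays of 12 months. The part of sex and of this control signal in the tumour results was not tested, beyond the values against the 1 male wild type array given below.

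Metallothioneins are small, cysteine-rich proteins that bind zinc and copper and buffer free metal. The zinc sensor Mtf1 switches on Mt1, Mt2 and Slc30a1 through short promoter sequences called metal response elements, and glucocorticoids and oxidants also raise Mt1 and Mt2. Mt3 is best known from brain. Slc30a1 (ZnT1) carries zinc out of the cell across the plasma membrane, and Slc39a2 (ZIP2) belongs to the ZIP family, which carries zinc into the cytosol. In lung, metallothioneins are made by many cell types.

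Mt4, Mt3, Mt2 and Mt1 stand next to each other in that order on chromosome 8 in the RefSeq gene table. The promoter of Mt2 is shown because Mt2 is the member that defines the Ptend/d pattern. All 5 members had an entry in the RefSeq promoter table (build GRCm38.p6), which holds 32851 windows. The sequence below gives the 250 bases before the table's start of Mt2 (chr8:94172368-94172617, plus strand), and capitals mark matches to the core of the metal response element, TGCACNC or TGCGCNC on either strand.
Mt2: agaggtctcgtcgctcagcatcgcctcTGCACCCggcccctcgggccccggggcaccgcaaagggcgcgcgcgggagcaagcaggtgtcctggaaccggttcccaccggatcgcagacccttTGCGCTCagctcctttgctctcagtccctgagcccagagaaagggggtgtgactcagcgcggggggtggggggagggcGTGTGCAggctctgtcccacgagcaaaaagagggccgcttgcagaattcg
Shorter stretches of 30 bases around matches of Mt1 (chr8:94179054-94179083, before the start, and chr8:94179089-94179118, from the start on) and of Slc30a1 (chr1:191906726-191906755), all on the plus strand, are set beside it to show the same core in other members.
Mt1 before the start: gcggtcccgctgTGCACACtggcgctccag
Mt1 from the start: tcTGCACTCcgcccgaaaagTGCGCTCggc
Slc30a1 before the start: aacgggggttccGAGTGCAaagcaaagttt
In the 250 bases before the start there were 3 matches for Mt2, at positions -223, -128 and -50, where the base before the start is -1. Mt1 had 1, at -23, and Slc30a1 had 1, at -43 on the minus strand. Mt3 and Slc39a2 had 0 in that window. Of all 32851 windows of 250 bases, 21.4% held at least 1 match, 5.17% at least 2 and 1.26% at least 3. In windows of 300 bases, which run past the start, Mt2 had 4 matches, Mt1 3, Slc30a1 2, Mt3 1 and Slc39a2 0. Of all such windows 1.97% held at least 3. The table's start points were not checked against another source, and the counts before the start depend on them. The core of the antioxidant response element, TGACNNNGC on either strand, matched once each for Mt2 and Slc30a1, at -79 and -82, apart from the metal response cores. At least 1 such match stood in 10.2% of all windows. The glucocorticoid response element, searched with no mismatch on both strands, matched for 0 of the members and in 3 of the 32851 windows. A match is a run of letters and not a shown binding site, and the windows do not cover more distant elements.

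Mt2 had the lowest values of the 15 arrays in the Ptend/d lungs. They read 949.9, 953.3 and 1026, against 4779, 3460 and 5492 in wild type lung at 7 months. Ptend/dSmad4d/d lung of the same age read 3974, 4287 and 6338. The highest Ptend/d array was thus below the lowest array of either other group at 7 months, while wild type and Ptend/dSmad4d/d lung overlapped. Relative to wild type, Mt2 was 4.55-fold lower in Ptend/d lung (log2 difference -2.19 ± 0.20, SE) and within 0.08 ± 0.20 of it in Ptend/dSmad4d/d lung. Against Ptend/d lung, the value in Ptend/dSmad4d/d lung was 4.82-fold higher.

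At 12 months, Mt2 stood on the other side of wild type. The tumours read 8712, 5655 and 7579, and wild type lungs 2120, 3437 and 3864, with no overlap. This is a 2.36-fold higher value (log2 difference 1.24 ± 0.26, SE), or 1.06 against the male wild type array. In order, the mean log2 level of Mt2 fell from tumours over Ptend/dSmad4d/d and wild type lung at 7 months and wild type lung at 12 months to Ptend/d lung. Each of these neighbours overlapped except the last pair.

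Mt1, read best by probe set 1422557_s_at, followed the same order of groups. Its Ptend/d arrays read 2062, 2267 and 2232, its wild type arrays of 7 months 5837, 4568 and 6475, and its Ptend/dSmad4d/d arrays 5056, 5295 and 7005. Again only the Ptend/d lungs lay apart, at 2.54-fold below wild type (-1.34 ± 0.15, SE), a smaller log2 difference than that of Mt2. The Ptend/dSmad4d/d lungs were 0.04 ± 0.15 from wild type, which did not pass the test (limma, adjusted p = 0.924), and the sign of this difference turned under some settings. Mt2 was chosen for not falling in this group, and this Mt1 probe set may not read independently of Mt2. Nothing is therefore concluded from this test. In the tumours Mt1 read 8619, 5786 and 7394 against 3304, 4234 and 4974 in wild type lung. The groups did not overlap, and the log2 difference was 0.80 ± 0.20 (SE), or 0.76 against the male array.

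Over the 15 arrays the log2 values of Mt1 and Mt2 correlated at r = 0.995, and at 0.988 over the 12 arrays left without the Ptend/d lungs. Within the 9 arrays of 7 months r was 0.998, and within the 6 of 12 months 0.991. The array pairs of these correlations share mice and hybridisation, and the suffix _s_at of the Mt1 probe set marks probes that can match more than 1 transcript. Whether the Mt1 probes also bind Mt2 RNA was not tested, so the 2 probe sets may not be independent readings.

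The other Mt1 probe set, 1451612_at, was dim and less even. It read 64.3, 57.5 and 57.3 in Ptend/d lung, 68.4, 135.6 and 154.2 in wild type and 87.0, 99.8 and 231.9 in Ptend/dSmad4d/d lung at 7 months. The Ptend/d arrays were again the lowest, but the gap to the nearest wild type array was small. At 12 months it read 50.4, 85.7 and 57.1 in wild type lung and 330.1, 78.5 and 82.9 in tumours, so that tumour array 1 alone stood above the wild type range. For Ptend/dSmad4d/d against wild type lung the log2 difference was 0.15 ± 0.35 (SE; limma, adjusted p = 0.867). The mean of both Mt1 probe sets gives a difference of -1.06 for Ptend/d lung.

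Mt3 was at or near the floor of the array in all groups. Its 15 values ran from 1.0 to 17.7, the highest on wild type array 3 of 12 months, and no fold is given at this level. Mt4, the metallothionein of stratified epithelia and no member, ranged up to 40.3 and was not called in any comparison.

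**Figure D1:**
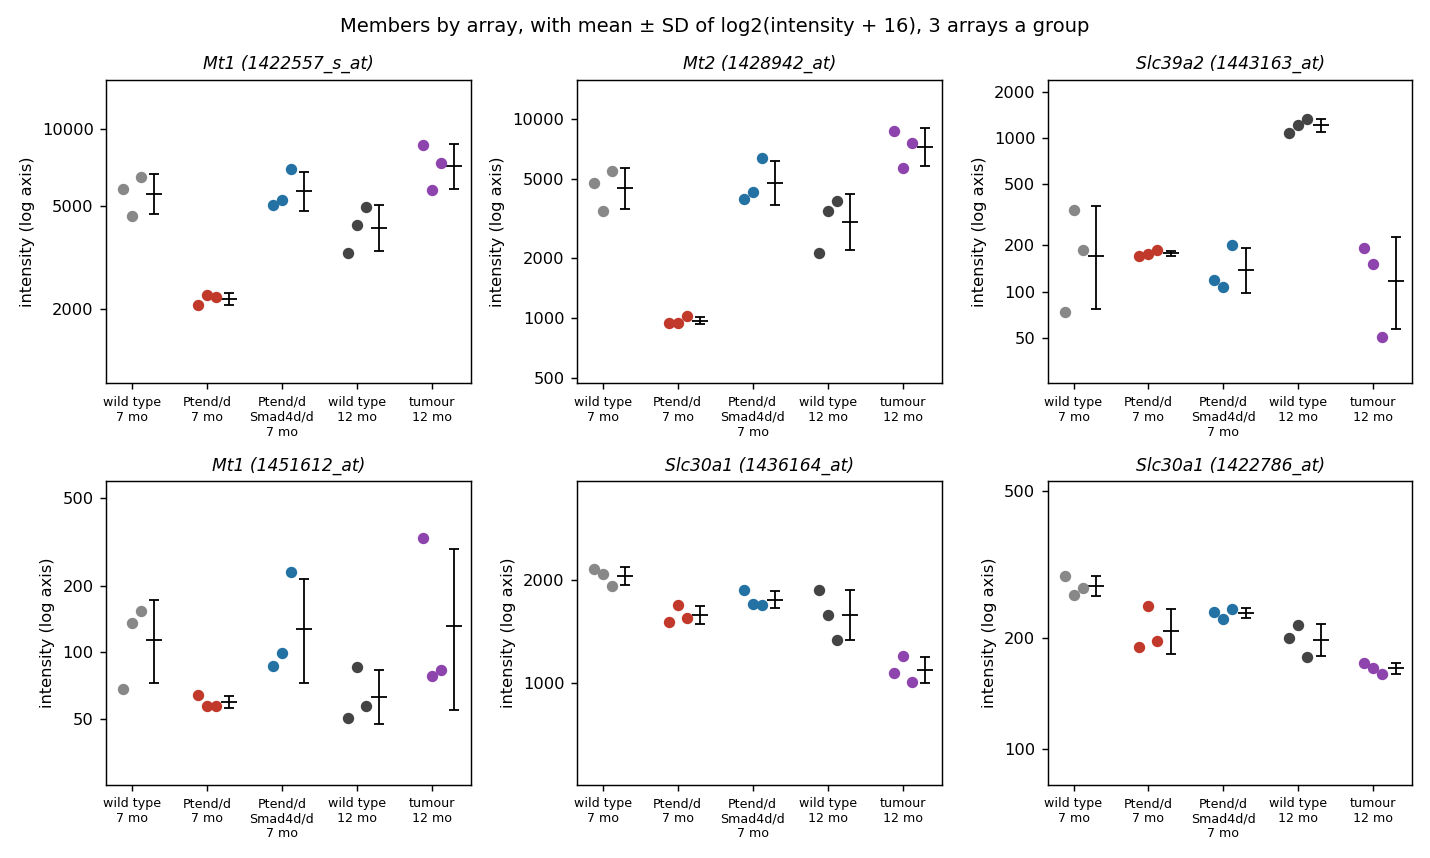
Intensity (vertical log axis) of 6 member probe sets on each array; points are arrays, coloured by group, and the bars to their right give the mean ± SD of log2(intensity + 16) over 3 arrays. Mt2 sits at 949.9 to 1026 in Ptend/d lung and at 3460 or above in both other groups of 7 months, and Slc39a2 sits at 1084 to 1330 in wild type lung of 12 months and at 342.7 or below elsewhere.

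Slc30a1, the zinc exporter, moved by less. Its brighter probe set, 1436164_at, read 2161, 2083 and 1925 in wild type lung at 7 months. Ptend/d lung read 1505, 1691 and 1549, and Ptend/dSmad4d/d lung 1873, 1699 and 1690. Both mutant groups lay below all wild type arrays and overlapped each other. The log2 difference from wild type was -0.37 ± 0.08 (SE) in Ptend/d lung. In Ptend/dSmad4d/d lung it was -0.23 ± 0.08 (SE), which did not pass the test (limma, adjusted p = 0.167).

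The second probe set of Slc30a1, 1422786_at, gave nearly the same differences at a lower signal. It read 295.0, 261.5 and 272.5 in wild type lung, 188.7, 244.2 and 195.8 in Ptend/d lung and 235.2, 225.3 and 239.8 in Ptend/dSmad4d/d lung at 7 months. The Ptend/d difference was -0.38 ± 0.10 (SE) and the Ptend/dSmad4d/d difference -0.23 ± 0.10 (SE; limma, adjusted p = 0.255). Over the 15 arrays the 2 probe sets correlated at r = 0.904.

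In tumours Slc30a1 was the lowest of the 5 groups by both probe sets. By 1436164_at the tumours read 1068, 1196 and 1007 against 1872, 1578 and 1338 in wild type lung at 12 months, a log2 difference of -0.53 ± 0.14 (SE) and of -0.53 against the male array. By 1422786_at they read 170.5, 165.2 and 159.7 against 199.9, 215.9 and 177.8, a difference of -0.24 ± 0.10 (SE) and of -0.36 against the male array. In neither probe set did the groups overlap, and Slc30a1 stood below wild type where Mt1 and Mt2 stood above it. Its r with Mt2 over 15 arrays was -0.288 for 1436164_at and -0.07 for 1422786_at.

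Slc39a2, the zinc importer, was high in only 1 of the 5 groups, wild type lung at 12 months. It read 1084, 1224 and 1330 there, against 191.4, 152.6 and 51.0 in tumours. No tumour array came near the wild type range, and the log2 difference was -3.21 ± 0.41 (SE), a 9.22-fold lower value, or -3.22 against the male array. At 7 months, wild type lung read 74.1, 342.7 and 188.0, Ptend/d lung 171.4, 175.2 and 186.0, and Ptend/dSmad4d/d lung 119.7, 107.8 and 202.4. These 3 groups overlapped each other and the tumours. Ptend/dSmad4d/d lung differed from wild type by -0.28 ± 0.43 (SE; limma, adjusted p = 0.782), and without wild type array 2 of 7 months the value was 0.19. Wild type lung of 12 months thus lay 6.53-fold above wild type lung of 7 months, where age and the set of arrays cannot be told apart. The tumour level was close to that of all lungs at 7 months.

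Without overlap between groups of 3 arrays, 5 of the 7 member probe sets were lower in Ptend/d than in wild type lung, beside 15.3% of all 34945 probe sets. For Ptend/dSmad4d/d against wild type lung it was 2 of 7 lower, both of Slc30a1, beside 10.0% of all. For Ptend/dSmad4d/d against Ptend/d lung it was 3 of 7 higher, all of Mt1 and Mt2, beside 14.0%. In tumours 2 of 7 were higher and 3 lower, beside 17.3% and 16.3% of all probe sets. The members were chosen on these contrasts, Mt2 also for not falling in Ptend/dSmad4d/d lung, so nothing is read from these shares. In Ptend/dSmad4d/d against wild type lung, 2 probe sets of 1 gene are also too few to compare.

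The other genes of zinc handling were taken from lists that do not include the members. Of 13 ZIP importers, 2 rose and 0 fell in Ptend/d lung, beside 8.84% of all genes higher and 4.44% lower. Slc39a4 (ZIP4), the main importer of dietary zinc in gut, read 2344, 2270 and 2412 in Ptend/d lung against 828.1, 584.9 and 804.1 in wild type. It was 3.16-fold higher (log2 difference 1.66 ± 0.13, SE; limma, adjusted p = 0.000207), with no overlap. In Ptend/dSmad4d/d lung it read 2105, 2511 and 2137, 3.03-fold above wild type (1.60 ± 0.13, SE; limma, adjusted p = 0.000328). Unlike Mt2, Slc39a4 was thus above wild type in both mutant groups of 7 months, and its difference between them, -0.06 ± 0.13 (SE), did not pass the test (limma, adjusted p = 0.861). In tumours it was 2.02-fold above wild type, which missed the threshold (limma, adjusted p = 0.051).

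Slc39a11 (ZIP11), another importer, rose in all 3 comparisons with wild type. It was 1.33-fold higher in Ptend/d lung (limma, adjusted p = 0.0276), 1.63-fold in Ptend/dSmad4d/d lung (limma, adjusted p = 0.00344) and 1.48-fold in tumours (limma, adjusted p = 0.0136). The call in Ptend/d lung was lost in 4 of the 6 fits that left out 1 array. In Ptend/dSmad4d/d lung 2 of 13 importers rose and 0 fell, beside 5.48% and 0.742% of all genes. In tumours 2 of 13 rose and 0 fell, beside 8.28% and 5.17% of all genes: Slc39a11 and Slc39a9, which was 1.40-fold higher (limma, adjusted p = 0.043). The tumour call of Slc39a9 was lost in 5 of the 6 fits without 1 array, and that of Slc39a11 in 1 of them. Losses in other settings are not counted for tumour calls, since some of those fits rest on 1 wild type array. Slc39a14, an importer of zinc and iron, read 305.1 to 341.1 in Ptend/d against 506.4 to 556.8 in wild type lung and missed the threshold (limma, adjusted p = 0.0528); it is named after its value was seen.

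Of the 9 ZnT exporters other than Slc30a1, 0 were called in any of the 3 comparisons with wild type. Their median log2 difference was -0.04 in Ptend/d lung, -0.002 in Ptend/dSmad4d/d lung and -0.05 in tumours, beside 0.016, 0.006 and 0.008 over all genes. Slc30a4 came nearest, at -0.30 ± 0.08 (SE; limma, adjusted p = 0.05, not under the threshold) in Ptend/d lung; it too is named after its value was seen. The zinc sensor Mtf1 was not called: its log2 difference was -0.12 ± 0.09 (SE; limma, adjusted p = 0.468) in Ptend/d lung and 0.04 ± 0.11 (SE; limma, adjusted p = 0.856) in tumours.

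Glucocorticoid-responsive genes were the list with the most falls in Ptend/d lung, where Mt1 and Mt2 were low. This list, like the others, was chosen with earlier results of these data known. Its counts describe these arrays and do not test a link to Mt1 and Mt2. Of 12 such genes, 8 fell and 0 rose, with a median log2 difference of -0.41 beside 0.016 over all genes, of which 4.44% fell. Fkbp5, a chaperone that restrains the glucocorticoid receptor, read 1021, 1192 and 947.2 in Ptend/d against 3186, 2662 and 3246 in wild type lung. It was 2.85-fold lower (log2 difference -1.51 ± 0.13, SE; limma, adjusted p = 0.000243). Pdk4, a kinase that shuts off pyruvate dehydrogenase, read 419.0, 480.8 and 468.2 against 1230, 1090 and 1461 and was 2.69-fold lower (-1.43 ± 0.12, SE; limma, adjusted p = 0.000253). The transcription factor Zbtb16 was 1.57-fold lower (limma, adjusted p = 0.00323) and Tsc22d3, known as GILZ, 1.34-fold lower (limma, adjusted p = 0.0102). The clock gene Per1, Cebpd, Sgk1 and Klf9 fell by 1.27-fold to 1.43-fold. Without 1 array, the call was lost in 5 of 6 fits for Cebpd, in 4 for Per1 and Sgk1 and in 2 for Klf9. For Zbtb16 and Tsc22d3 it was lost in 0 of these fits and in 1 of 13 other settings each.

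In Ptend/dSmad4d/d lung 0 of the 12 passed the test, with a median of -0.20 beside 0.006 over all genes. Fkbp5 read 2386, 2283 and 2871 there and Pdk4 1086, 1123 and 931.5. The difference between the mutant groups passed for these 2 genes: Fkbp5 was 2.36-fold higher in Ptend/dSmad4d/d than in Ptend/d lung (limma, adjusted p = 0.00316) and Pdk4 2.25-fold (limma, adjusted p = 0.00336). These were the only list genes called higher in that comparison, 2 of 63, beside 0.808% of all genes higher, and Gclc was the 1 gene called lower, beside 0.748%. Both comparisons of Ptend/d lung share its 3 arrays. Over the 9 arrays of 7 months the r of Mt2 with Fkbp5 was 0.968, and over all 15 arrays 0.514. Mt2 was chosen, and Fkbp5 is named, for low values on the 3 Ptend/d arrays, so a high r at 7 months follows from that choice. The r without these arrays was not computed.

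The count of 8 was 4 without Ptend/d array 2, 5 without Ptend/d array 3 and 4 with all 15 arrays in 1 model. Fkbp5 and Pdk4 were called lower in Ptend/d lung in each of these fits. The sources used here do not give the time of day of sampling, which moves Per1 and glucocorticoid levels. In tumours, where Mt1 and Mt2 were above wild type, 2 of the 12 fell and 0 rose: Sgk1, a kinase of ion transport (1.86-fold; limma, adjusted p = 0.0119), and Nr3c1, the glucocorticoid receptor (1.50-fold; limma, adjusted p = 0.0493), beside 5.17% of all genes lower. The call of Nr3c1 was lost in 5 of the 6 fits without 1 array, and that of Sgk1 in 1 of them. Other settings are again not counted, since some rest on 1 wild type array. Fkbp5 read 2225, 806.2 and 1710 in tumours and 1006, 984.9 and 782.9 in wild type lung, so that the groups overlapped.

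**Figure D2:**
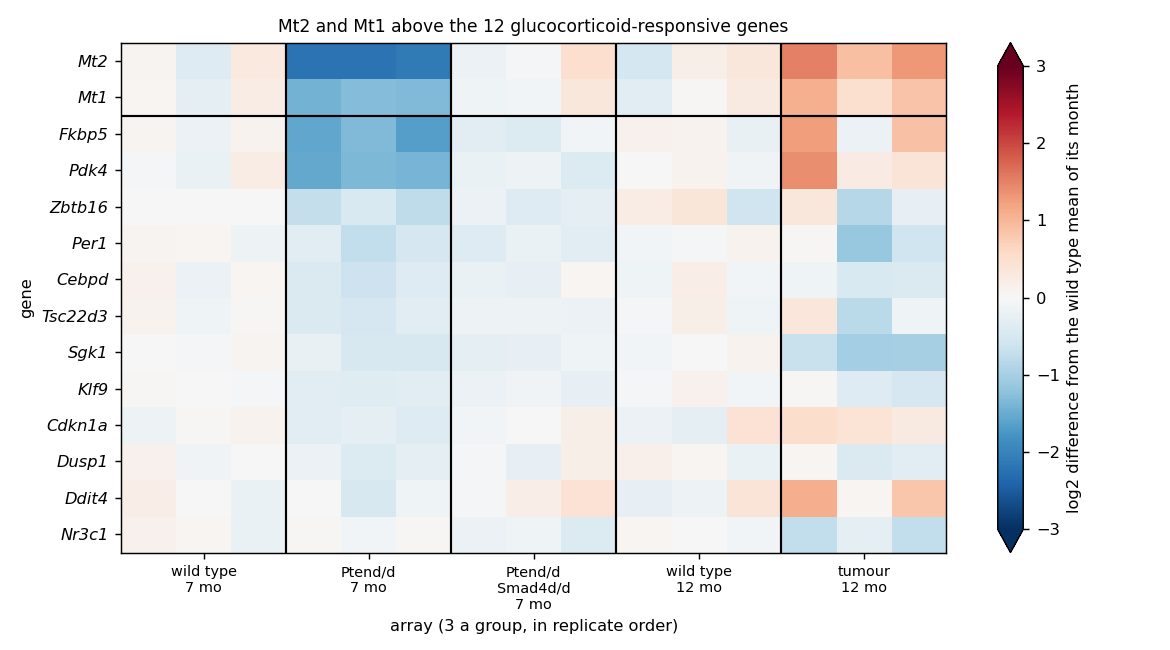
Log2 difference of each array (columns, 3 a group) from the wild type mean of its month, for Mt2, Mt1 and the 12 glucocorticoid-responsive genes (rows, ordered by their Ptend/d difference); blue is lower, red is higher, and the scale ends at 3 either way. The 3 Ptend/d columns are blue for Mt2, Mt1, Fkbp5 and Pdk4, and the tumour columns are red for Mt2 and Mt1 and mixed for the other genes.

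Markers of several cell types differed in the same comparison. Of all genes 8.84% rose and 4.44% fell in Ptend/d lung, and 5.48% and 0.742% in Ptend/dSmad4d/d lung. All 5 ciliated cell markers rose in both mutant groups. Their summed intensity was 2760 to 2930 in Ptend/d, 2799 to 3283 in Ptend/dSmad4d/d and 1267 to 1338 in wild type lung. Of the endothelial markers 2 of 5 fell in both mutant groups, at sums of 12353 to 12770, 11032 to 13026 and 14678 to 15059. Of the mesothelial markers 2 of 4 fell in both. Of the 3 measured B cell markers 2 rose in Ptend/d lung and 0 were called in Ptend/dSmad4d/d lung. The adipose markers read a sum of 223.1 to 257.2 in Ptend/d, 410.4 to 883.0 in Ptend/dSmad4d/d and 311.7 to 1060 in wild type lung, with 0 of 2 called. The part of these cell types in the low Mt1 and Mt2 was not tested. In a piece of tissue, fewer cells of a type and less RNA per cell cannot be told apart.

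Most genes of the metal and oxidant stress list were above wild type in tumours, where Mt1 and Mt2 were too. Hmox1 and Slc7a11 of this list were below wild type and not called, at log2 differences of -0.265 ± 0.159 and -0.444 ± 0.269 (SE). Hspa1a was above wild type and not called either. The calls of this list were often lost when 1 array was left out, for some genes whichever array it was. Of 9, 6 were called higher and 0 lower, with a median log2 difference of 0.63 beside 0.008 over all genes, of which 8.28% were called higher. Gclm, the modifier subunit of the enzyme that starts glutathione synthesis, was 1.66-fold higher (limma, adjusted p = 0.0138), and its catalytic partner Gclc 1.55-fold (limma, adjusted p = 0.0219). The quinone reductase Nqo1 was 1.91-fold higher (limma, adjusted p = 0.0378) and Srxn1, which repairs peroxiredoxins, 1.36-fold (limma, adjusted p = 0.0306). Hspa1b, an inducible chaperone, was 2.36-fold higher (limma, adjusted p = 0.0399) and Txnrd1, thioredoxin reductase, 1.26-fold (limma, adjusted p = 0.0458). This count was 0 to 3 when 1 array was left out. The fits with sex as a block or against the male array rest on 1 wild type array, too few to count calls. No count is given for them. Without 1 array, the call was lost in all 6 fits for Hspa1b and Txnrd1, in 5 for Nqo1 and Srxn1 and in 3 for Gclm and Gclc. By the mean of all its probe sets Txnrd1 differed by 0.062 on the log2 scale (limma, adjusted p = 0.804), against 0.33 as reported.

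In Ptend/d lung, where Mt1 and Mt2 were low, 2 of the 9 rose, beside 8.84% of all genes. Gclc read 3723, 4131 and 4405 against 1767, 1796 and 1914 in wild type lung and was 2.22-fold higher (limma, adjusted p = 0.000105), and Nqo1 was 1.77-fold higher (limma, adjusted p = 0.00574). Both also rose in Ptend/dSmad4d/d lung, by 1.31-fold (limma, adjusted p = 0.024) and 1.89-fold (limma, adjusted p = 0.00506). That call was lost for Gclc in 5 of the 6 fits without 1 array and for Nqo1 in 0. Gclc was 1.69-fold lower in Ptend/dSmad4d/d than in Ptend/d lung (limma, adjusted p = 0.00344), the opposite direction to the values of Mt1 and Mt2. Hspa1a and Hspa1b of this list, named after their values were seen, were lowest in Ptend/d lung at 7 months but missed the threshold. Hspa1a read 626.2 to 675.9 there, 852.5 to 2431 in wild type and 948.9 to 2739 in Ptend/dSmad4d/d lung. Hspa1b read 2654 to 2735, 3290 to 7208 and 3977 to 7987. Their log2 differences from wild type were -1.26 ± 0.43 and -0.92 ± 0.30 (SE, limma, adjusted p = 0.0986 and 0.091).

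Of 9 genes of copper handling, the other metal that metallothioneins bind, ceruloplasmin (Cp), a secreted copper ferroxidase, rose in all 3 comparisons. It was 2.08-fold higher in Ptend/d lung (limma, adjusted p = 0.000794), 2.36-fold in Ptend/dSmad4d/d lung (limma, adjusted p = 0.000526) and 1.71-fold in tumours (limma, adjusted p = 0.0197). The tumour call of Cp was lost in 4 of the 6 fits without 1 array, and its 7-month calls in 0. The copper importer Slc31a1 was 1.25-fold higher in Ptend/dSmad4d/d lung (limma, adjusted p = 0.0448), a call lost in 5 of the 6 fits without 1 array and in 6 of 13 other settings. Its relative Slc31a2 was 2.15-fold lower in tumours (limma, adjusted p = 0.00716), at 900.6 to 1073 against 1942 to 2317. The remaining 6 were not called in any comparison with wild type. Of all genes 8.84% rose in Ptend/d lung, 5.48% in Ptend/dSmad4d/d lung and 8.28% in tumours, where 5.17% fell.

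Of 9 acute phase genes, which inflammation switches on in liver and lung, 4 fell in tumours and 0 rose, beside 5.17% and 8.28% of all genes. Orm1 was 5.18-fold lower (limma, adjusted p = 0.00586), Saa1 3.08-fold (limma, adjusted p = 0.018), Saa2 2.48-fold (limma, adjusted p = 0.0166) and Lcn2 1.61-fold (limma, adjusted p = 0.0293). Without 1 array the call was lost in 4 of 6 fits for Saa1 and Lcn2, in 2 for Saa2 and in 0 for Orm1. Wild type lung of 12 months stood above wild type lung of 7 months for these 4 genes: mean Orm1 was 1559 against 165.5 and mean Lcn2 11542 against 4798. The tumours overlapped wild type lung of 7 months in all 4, at 216.9 to 376.3 against 46.0 to 344.7 for Orm1 and 5860 to 8181 against 2340 to 6637 for Lcn2. Between the wild type groups, age and the set of arrays cannot be told apart. Haptoglobin (Hp) alone of this list rose at 7 months, by 1.26-fold in Ptend/d lung (limma, adjusted p = 0.0124) and 1.28-fold in Ptend/dSmad4d/d lung (limma, adjusted p = 0.0152). Over all 63 list genes, 6 rose and 8 fell in Ptend/d lung, 7 rose and 0 fell in Ptend/dSmad4d/d lung, and 9 rose and 7 fell in tumours. Over all genes 8.84% rose and 4.44% fell in Ptend/d lung, 5.48% and 0.742% in Ptend/dSmad4d/d lung, and 8.28% and 5.17% in tumours. The 6 of 63 that rose in Ptend/d lung, 9.52%, lie near the share over all genes. The count of 14 in Ptend/d lung was 8 without Ptend/d array 2. The count of 7 was 4 without Ptend/dSmad4d/d array 1 or 2. The count of 16 in tumours was 3 without wild type array 1, 4 without wild type array 3, 7 without tumour array 1, 8 without wild type array 2 and 8 without tumour array 3.

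**Figure D3:**
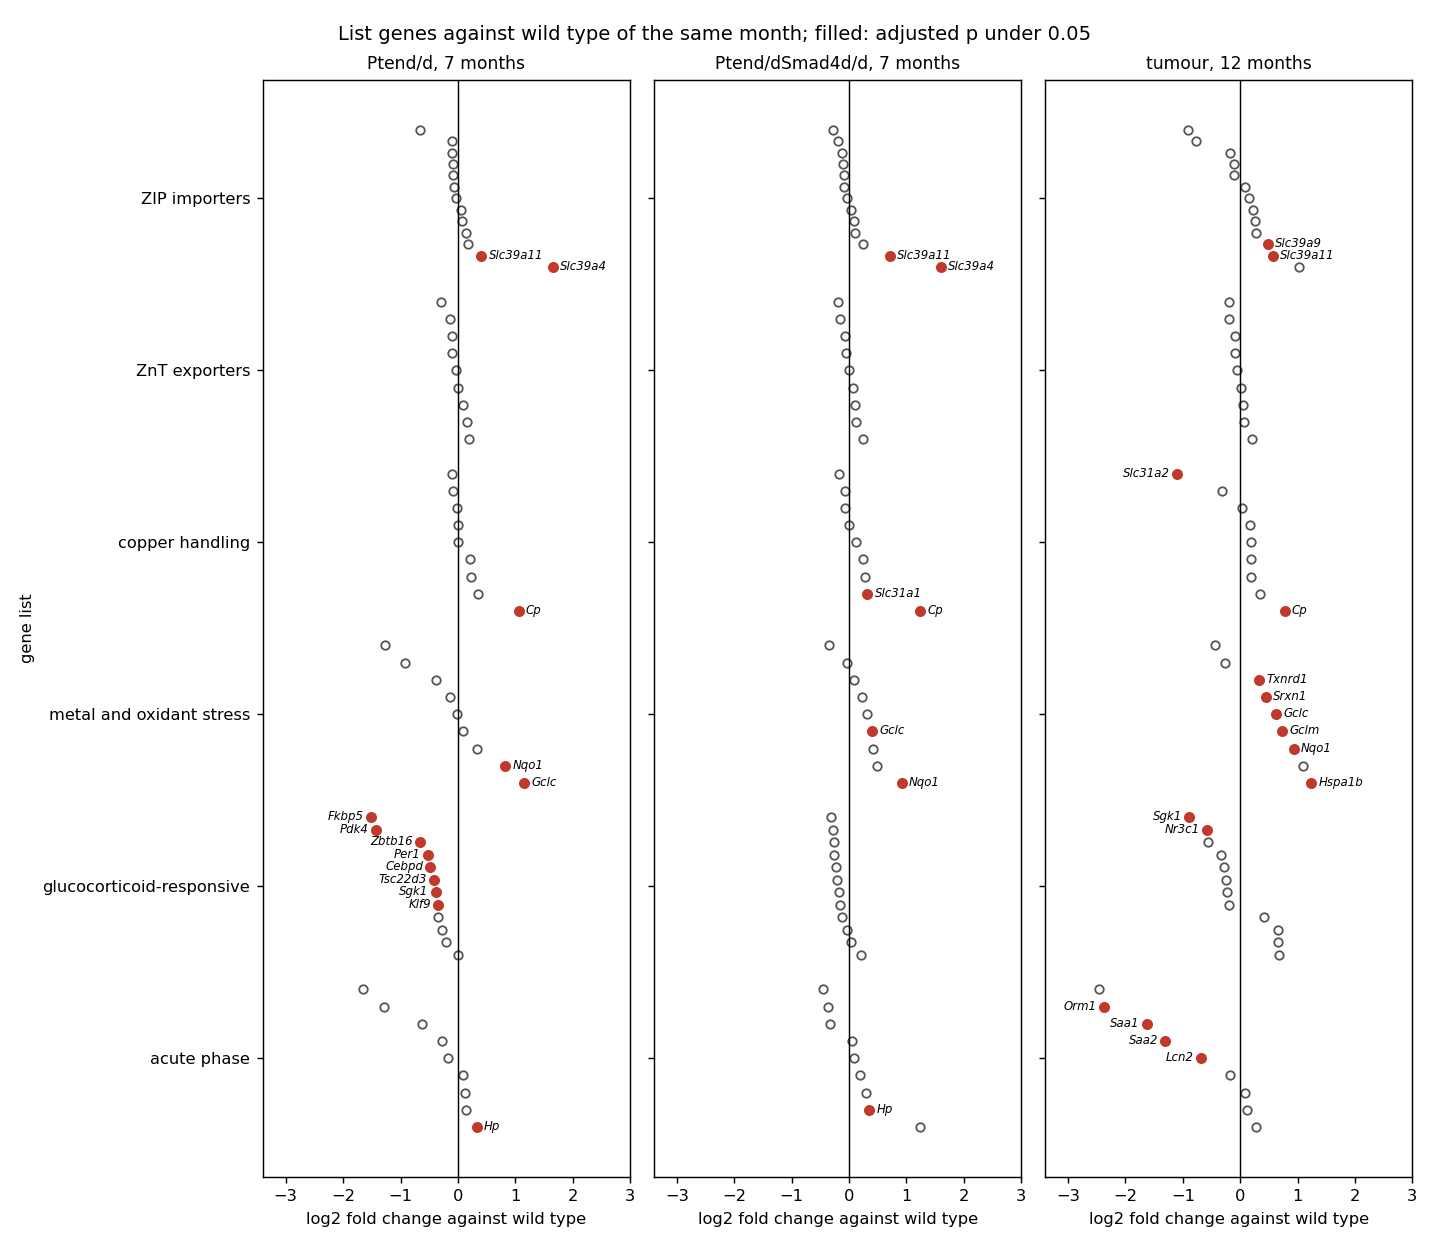
Log2 fold change against wild type of the same month (horizontal axis) for the genes of 6 lists (rows), in 3 comparisons (panels); each point is a gene, filled and named where the adjusted p was under 0.05. The glucocorticoid-responsive list has 8 named genes in the Ptend/d panel and 0 in the Ptend/dSmad4d/d panel, and the ZnT exporters have 0 in all panels.

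The genes most like Slc39a2 over the 15 arrays, among 12918 genes that reach an intensity of 100, were Il1a (r = 0.988), Cd200r4 (0.985), Atp6v0d2 (0.978), Stra6l (0.975) and Lipa (0.972). Il1a read 378.5 to 505.7 in wild type lung at 12 months, 33.5 to 74.4 in tumours and 38.5 to 164.1 in wild type lung at 7 months. Cd200r4 and Atp6v0d2 are on the list of alveolar macrophage markers used here. Of the 14 measured markers of that list, 9 fell in tumours and 0 rose, with a median log2 difference of -1.89 beside 0.008 over all genes. Of all genes 5.17% fell and 8.28% rose.

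The markers' summed intensity was 46350 to 55435 in wild type lung at 12 months and 18435 to 30847 in tumours. It was 19459 to 30752 in wild type, 21884 to 25491 in Ptend/d and 22115 to 29720 in Ptend/dSmad4d/d lung at 7 months. The largest difference was that of Olr1, a scavenger receptor, 10.1-fold lower in tumours (limma, adjusted p = 0.0225). Itgax, the integrin CD11c, was 4.27-fold lower (limma, adjusted p = 0.0143) and Siglecf 5.70-fold (limma, adjusted p = 0.0272). Chil3, a chitinase-like protein, read a mean of 10660 in tumours against 14170 and was not called (limma, adjusted p = 0.309), and 0 of the 14 markers lay below 16 on all arrays of a group. At 7 months 1 marker, Plet1, rose in each mutant group and 0 fell, beside 8.84% of all genes higher in Ptend/d and 5.48% in Ptend/dSmad4d/d lung. The count of 9 was 2 without wild type array 1 or 3 and 5 without wild type array 2. No count is given with sex as a block or against the male array, since these fits rest on 1 wild type array. The part of these cells in the Slc39a2 values was not tested.

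**Figure D4:**
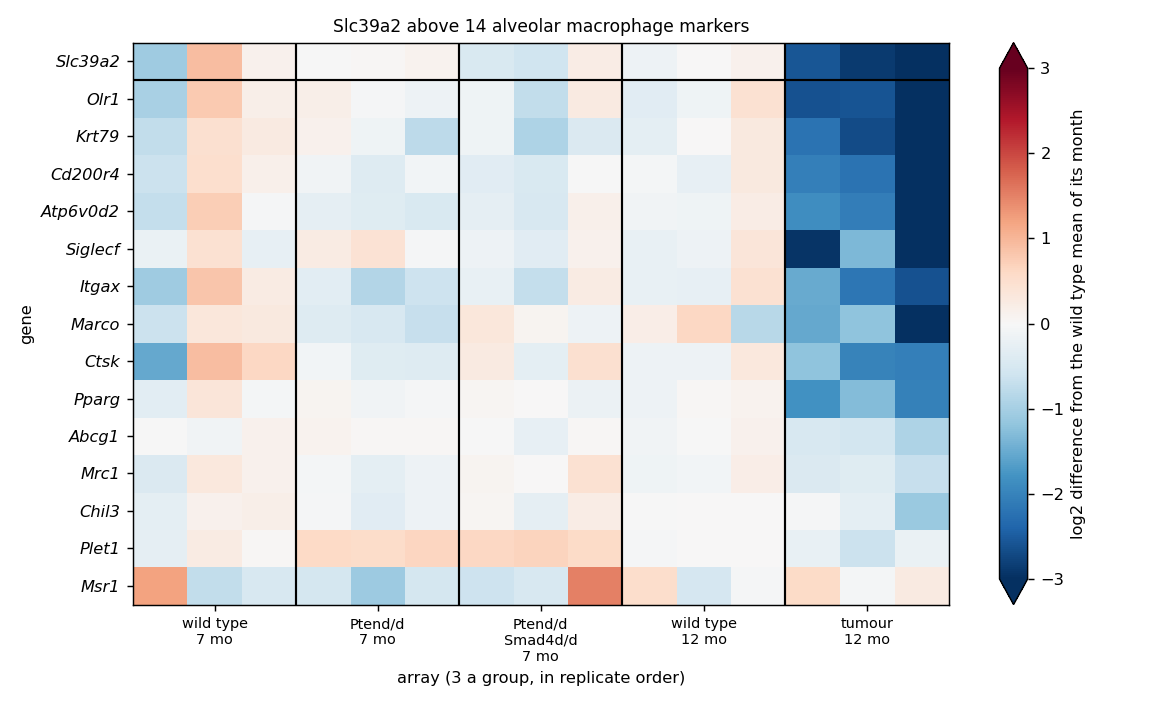
Log2 difference of each array (columns, 3 a group) from the wild type mean of its month, for Slc39a2 and 14 alveolar macrophage markers (rows, ordered by their tumour mean); the scale ends at 3 either way. Slc39a2 is blue on all 3 tumour arrays, as are the 9 markers that fell, and wild type arrays 1 and 2 of 7 months lie on opposite sides of their mean for Slc39a2, as they do for Olr1 and Itgax.

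Other cell types differed in tumours beside the members, where 8.28% of all genes rose and 5.17% fell. All 5 basal and squamous markers rose, at a summed intensity of 2367 to 6056 against 88.0 to 134.4 in wild type lung. All 5 ciliated markers (5033 to 8324 against 2260 to 2988) and all 4 cardiac muscle markers (14567 to 16423 against 5480 to 7712) rose, and 4 of 5 endothelial markers fell (5077 to 6502 against 8347 to 9588). The count of 5 basal and squamous markers was 5 in each of the 6 fits without 1 array, and that of 4 cardiac markers was 3 to 4. The 5 ciliated markers were 0 without wild type array 3, 1 without wild type array 1 or tumour array 1 and 2 without tumour array 3. The 4 endothelial markers were 0 without wild type array 1 or 3, 1 without wild type array 2 and 2 without tumour array 1. With sex as a block or against the male array, only 1 wild type array is left, so these 4 counts are not given there. The part of these cell types in the values of Mt1, Mt2 and Slc30a1 in tumours was not tested.

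The genes ranked most like Mt2 after Mt1 were Bcat1, an aminotransferase of branched-chain amino acids (r = 0.941), Nol10 (0.931), Cars, a cysteine-tRNA ligase (0.929), and Esco1 (0.905). The same search for Mt1 gave Mt2, Bcat1 (0.948), Nol10 (0.923), Cars (0.916) and Timm10 (0.915). These ranks use the Ptend/d arrays, whose values chose Mt2. Over the other 12 arrays the r with Mt2 was 0.933 for Bcat1, 0.909 for Nol10, 0.792 for Cars and 0.432 for Esco1. Bcat1 was dim: it read 3.52 to 7.39 in Ptend/d lung, below the pseudocount of 16, at most 74.0 in the other lung groups and 52.0 to 123.3 in tumours, so that only a tumour array brought it into the search. Cars read 85.7 to 97.9 in Ptend/d lung, 153.5 to 172.0 in wild type lung of 7 months and 185.5 to 196.9 in tumours. For Slc30a1 the search gave Shank3 (0.977), Rapgef5 (0.969), Raph1 (0.968), Disp2 (0.965) and Gimap5 (0.963). Shank3 read 1210 to 1471 in wild type lung of 7 months, 832.2 to 897.2 in Ptend/d lung and 285.3 to 452.3 in tumours. These correlations run over 15 arrays that fall into 5 groups.

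The tumour effect at 12 months was also set against the effect in Ptend/dSmad4d/d lung at 7 months, each relative to its own wild type, where age, tumour against lung and the set of arrays cannot be told apart. Mt2 differed by 1.16 ± 0.35 on the log2 scale, Mt1 by 0.76 ± 0.26 and Slc39a2 by -2.92 ± 0.64 (SE, description only). Slc30a1 differed by -0.31 ± 0.16 for 1436164_at and by -0.008 ± 0.14 for 1422786_at. Of the 63 list genes, 0 were called higher and 2 lower, beside 1.50% and 1.12% of all genes: Slc31a2 (-0.93 ± 0.15, SE; limma, adjusted p = 0.00743) and Sgk1 (-0.68 ± 0.15, SE; limma, adjusted p = 0.0342).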

How the data were processed

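Expression was read from 15 single-colour Affymetrix arrays, 3 a group, grouped by the labels' genotype, age and tissue. Per the labels' protocols, TRIzol RNA was cleaned on RNeasy columns and 250 ng was made into biotinylated cRNA by the 3' IVT Express method, so probe sets read mainly transcript ends. The authors deposited 1 linear intensity per probe set and array; background correction, summarization and scaling are not given in the sources used here. Of 45101 probe sets, 34945 had 1 symbol in the platform annotation and were tested, 932 had several and 9211 are unnamed; 34741 matched RefSeq (GRCm38.p6).

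Values were taken as log2(intensity + 16), which understates changes of dim genes, and fitted with limma 3.58.1 (R 4.3.3; lmFit, eBayes, two-sided), at 12 months on 6 arrays, at 7 months on 9 in 1 model, and for the ages on 15. P-values were adjusted (Benjamini-Hochberg) over all 34945 probe sets and called under 0.05; a list gene is read by its brightest probe set. The number of arrays limits the precision. The steps were tested on simulated data.

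Members, lists and markers were chosen with earlier results of these data known. Named are every member, list genes called against wild type (at most 4 a list and comparison by adjusted p; further stress and glucocorticoid genes were named after their values were seen), and the 5 genes most like each member. The lists held 63 genes (63 measured) and the markers 84 (76 measured). Promoters came from the RefSeq table. No 2 arrays held identical values. Alternatives covered normalization, pseudocounts, dim probe sets, variance model, array weights, probe set choice, arrays fitted, sex, replicate block and each array left out. Marker counts under these alternatives, and the male array with the spread of all 15 arrays, were chosen after seeing the data.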

Additional observations from a re-analysis of the deposited data

Results flagged for a closer look

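The effect on Slc31a2, a copper transporter, differed between 2 contrasts by a test of the difference itself: tumours of 12 months and Ptend/dSmad4d/d lung of 7 months, each against its own wild type. The first effect minus the second was -0.933 on the log2 scale (limma, adjusted p = 0.00743), and the call held in each of the 12 fits that left out 1 array. The tumours (900.6 to 1073) and Ptend/dSmad4d/d lung (927.8 to 1110) overlapped, while mean wild type lung was 2085 at 12 months and 1149 at 7 months. Age, tumour against lung and the set of arrays cannot be told apart.

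Sgk1, a glucocorticoid-responsive kinase, gave -0.678 between these contrasts (limma, adjusted p = 0.0342). That call was lost in 9 of the 12 fits that left out 1 array. Its mean was 3984 in tumours and 7389 in wild type lung of 12 months, and 5241 in Ptend/dSmad4d/d and 6094 in wild type lung of 7 months.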

How the results depend on the processing

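The signs of the member differences in Ptend/d lung and in tumours held under the alternatives run, except Slc39a2 in Ptend/d lung, from -0.484 to 0.513 with 1 array left out; Mt3, at the floor, was not followed. Mt2 in Ptend/d lung ranged from -2.37 to -2.04 with 1 array left out and was -2.19 with the replicate block; the replicate numbers did not pair the arrays (1 of 9 same-number pairs correlated above 0.1, from -0.128 to 0.161). Mt1 in Ptend/d lung was -1.06 by the mean of its probe sets. For Ptend/dSmad4d/d against wild type lung, Mt1 (1422557_s_at) reversed to -0.01 with median centring and -0.039 with array weights, and ranged from -0.106 to 0.148 with 1 array left out. Mt1 (1451612_at) reversed to -0.005 with array weights and ranged from -0.248 to 0.386, and Slc39a2 from -0.81 to 0.187; the cause was not tested.

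The 16 list genes called in tumours were 9 with a pseudocount of 1 and 3 to 18 with 1 array left out. The 6 stress genes were 2 with a pseudocount of 1 and 0 to 3 with 1 array left out. With sex as a block or against the male array, the tumours stand against 1 wild type array, so no calls are counted for these fits. The 8 glucocorticoid-responsive genes were 4 with all 15 arrays in 1 model and 4 to 7 with 1 left out, and all 14 list genes in Ptend/d lung 8 to 15. In Ptend/dSmad4d/d lung 7 became 12 with a variance trend and robust fit, 4 with only the groups compared and 4 to 7 with 1 left out. Between the mutant groups 3 became 5 with a pseudocount of 64 or without dim probe sets and 8 with trend and robust fit. For the difference between ages 2 became 1 with a pseudocount of 1, array weights, only the groups compared or the replicate block, 4 by the mean of probe sets, and 1 to 7 with 1 left out (7 without tumour array 2). Over all genes, 2447 calls in tumours ranged from 461 to 3005 with 1 array left out. No range over the other settings is given for tumours, since some of those fits rest on 1 wild type array, so 461 is not a lower limit over all settings. Under all alternatives, 2417 calls in Ptend/d lung ranged from 1369 to 3054 and 1132 in Ptend/dSmad4d/d lung from 625 to 1729. The 283 between the mutant groups ranged from 96 to 657, and the 476 for the ages from 214 to 1629. Dim signal limits Mt3, Mt4 and the Mt1 probe set 1451612_at.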
